A study of Mus musculus with 12 samples.

Results

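The 5 genes described here, Egln1, Egln2, Egln3, Hif1an and Vhl, encode the enzymes and the recognition protein that keep hypoxia inducible factors (HIFs) in check when oxygen is present. They were chosen by symbol among the 37681 genes of the deposited count table, and all 5 were among the 19399 genes with enough reads to be tested. RNA came from a thin outer slice of kidney cortex of C57BL/6 male mice, 18 months old and untreated. The 3 TG+ mice (43-29, 43-49 and 43-75) carried the TRACK/gamma-HIF1alphaM3 transgene, a mutated and constitutively active HIF1α that is expressed in the renal proximal tubules, and the 3 TG− mice (43-26, 43-50 and 43-76) were their wild-type littermates. Both kidneys of each mouse gave a library, so that there were 12 libraries from 6 mice, and the reads of the 2 kidneys were summed because the mouse is the replicate.

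The products of Egln1, Egln2 and Egln3 (the prolyl hydroxylases PHD2, PHD1 and PHD3) use oxygen, iron and 2-oxoglutarate to hydroxylate prolines of the HIF α subunits. The product of Vhl (pVHL) binds the hydroxylated α subunit and, in a complex with elongins, a cullin and a RING protein, marks it for degradation, and Hif1an encodes FIH, an asparagine hydroxylase that blocks the binding of coactivators to HIF. Egln3 and Egln1 are themselves known to be transcribed under HIF control, an arrangement described as feedback, and loss of VHL is the common lesion of clear cell renal cell carcinoma. The comparison asks how the mRNA of each of these genes differed between kidney cortex with and without the active HIF1α.

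The regions around the starts of Egln3, Egln1 and Egln2 are shown because these 3 genes differed between the genotypes and hold the 5-base core of the hypoxia response element, written here as ACGTG or GCGTG, on either strand. Each sequence has 300 bases and is given 5′ to 3′ on the strand of the gene from RefSeq (GRCm38.p6), with the start of transcription near its end and the matches in capitals (CACGT and CACGC are matches on the other strand). The window of Egln3 lies at chr12:54203825-54204124, that of Egln1 at chr8:124949205-124949504 and that of Egln2 at chr7:27166753-27167052, all on the minus strand.
Egln3: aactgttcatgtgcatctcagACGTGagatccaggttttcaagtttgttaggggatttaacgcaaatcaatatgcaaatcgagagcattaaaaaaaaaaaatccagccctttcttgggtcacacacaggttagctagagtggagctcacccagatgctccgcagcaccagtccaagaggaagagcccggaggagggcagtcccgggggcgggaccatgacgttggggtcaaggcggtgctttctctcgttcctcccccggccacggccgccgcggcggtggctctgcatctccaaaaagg
Egln1: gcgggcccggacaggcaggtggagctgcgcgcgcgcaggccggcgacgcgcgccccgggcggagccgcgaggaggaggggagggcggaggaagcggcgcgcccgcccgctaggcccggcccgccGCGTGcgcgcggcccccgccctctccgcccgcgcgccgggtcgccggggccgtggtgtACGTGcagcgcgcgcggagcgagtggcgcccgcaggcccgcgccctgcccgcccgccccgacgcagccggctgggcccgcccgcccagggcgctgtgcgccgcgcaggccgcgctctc
Egln2: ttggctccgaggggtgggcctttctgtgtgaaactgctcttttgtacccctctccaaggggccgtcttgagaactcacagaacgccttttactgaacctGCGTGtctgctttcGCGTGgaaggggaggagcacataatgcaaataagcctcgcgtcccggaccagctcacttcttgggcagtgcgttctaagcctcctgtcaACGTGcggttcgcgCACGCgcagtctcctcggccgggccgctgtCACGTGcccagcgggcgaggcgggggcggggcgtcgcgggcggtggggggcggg
The Egln3 window holds 1 ACGTG, which begins at position -229 from the start, and no GCGTG. In the Egln1 window, of which 86.0% of the bases are G or C, an ACGTG begins at position -68 and a GCGTG at position -126. The Egln2 window has 3 ACGTG matches and 3 GCGTG matches, and in its capitals CACGTG a single run of letters counts once on each strand. A further RefSeq start of Egln2 has a window with 1 GCGTG, and neither motif was found in the windows of Hif1an and Vhl. Either motif occurs in 43.8% of all 32851 RefSeq windows of this length and in 58.0% of the 15327 windows of tested genes, and ACGTG alone in 19.6% and 23.7% of them, so a match is a description of these letters and not a site.

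The libraries held 21888584 to 33704850 counted reads, which summed to 48052131 to 60506785 per mouse. The level of a gene is its CPM, the read count relative to a library size adjusted by TMM (factors of 0.944 to 1.07). Mice of the same genotype varied with a biological coefficient of variation of 0.114, and kidneys within a mouse with 0.0419. The kidneys of 43-49 differed most, with a chi-square per gene of 7.30, against 1.95 to 4.52 in the other mice. Proximal tubule genes were abundant in every mouse, and none of the marker genes examined, counted by cell type further on, was at 0 in any library. The transgene is not listed as a separate gene in the table. A gene is called here where the fold change is above 2 or below 0.5 and the p-value of the quasi-likelihood test of edgeR, adjusted by Benjamini-Hochberg over all tested genes, is below 0.01. Calls on an adjusted p below 0.05 with no minimum fold are given beside it.

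Of the 5 genes, Egln3 alone was called, with higher mRNA in TG+ kidney cortex. Over all tested genes 3.77% were called higher and 0.211% lower by the same rule. At an adjusted p below 0.05, Egln3 and Egln1 were higher and Egln2 was lower, whereas 15.4% of all tested genes were higher and 10.9% lower. Hif1an and Vhl did not pass either threshold. The direction therefore differed among the hydroxylases, with the mRNA of 2 prolyl hydroxylases up and that of the other down. In RNA of whole cortex, fewer cells of a type and less RNA per cell cannot be told apart.

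**Figure D1:**
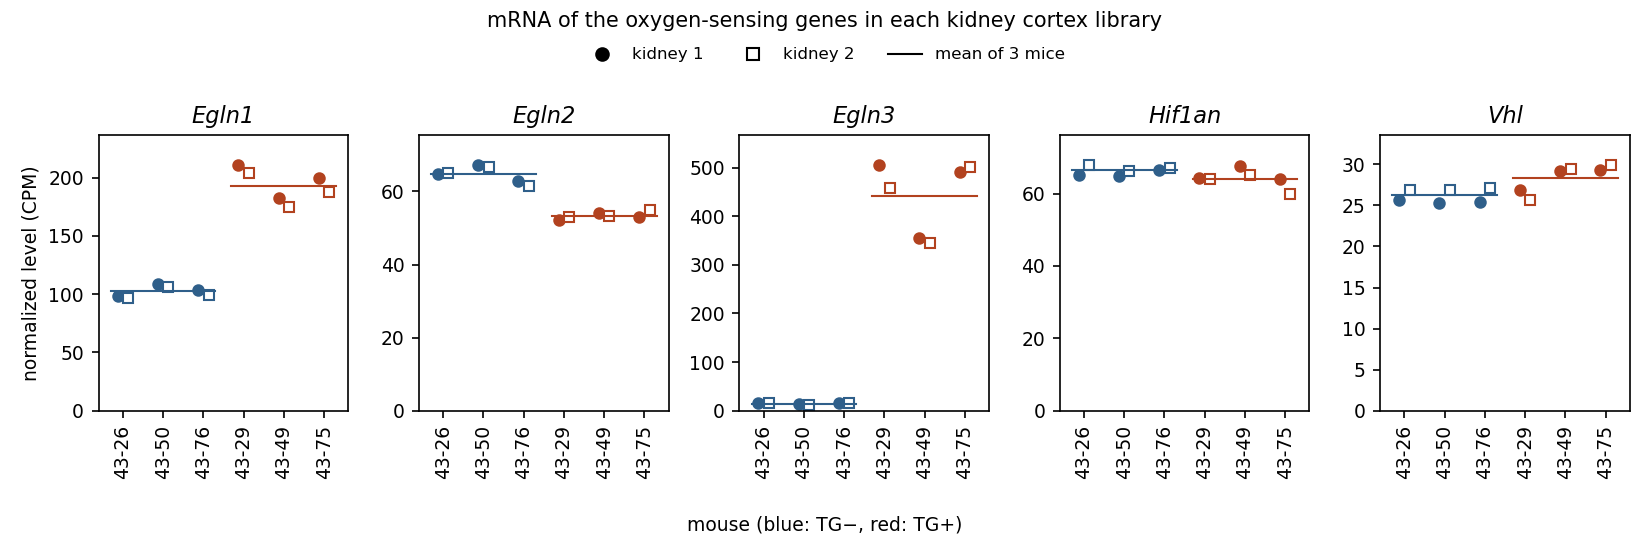
Level of each gene in every library, in TMM-normalized CPM (vertical axes start at 0 and differ between panels), by mouse on the horizontal axis. Filled circles are kidney 1, open squares kidney 2, and lines are the means of 3 mice, with TG− in blue and TG+ in red. The genotypes are apart for Egln3, Egln1 and Egln2, and both kidneys of 43-49 lie below the other TG+ libraries for Egln3.

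Egln3 (ENSMUSG00000035105, chromosome 12 from 54178981 to 54203860 on GRCm38) encodes the prolyl hydroxylase PHD3. Its mRNA stood at 479, 349 and 496 CPM in 43-29, 43-49 and 43-75, the order used for the TG+ mice throughout, and in the TG− mice (43-26, 43-50 and 43-76) at 15.3, 13.0 and 15.1 CPM. All TG+ mice were far above all TG− mice, as was also the case for 23.4% of all tested genes without regard to size. The mean rose from 14.5 ± 1.28 to 441 ± 80.5 CPM (SD, n = 3 mice each), a 30.4-fold increase with a 95% interval of 23.6 to 39.2. On the log2 scale the change was 4.93 (standard error 0.16, adjusted p = 3.5e-06 in edgeR's test). Among the 19399 tested genes this change was the 62nd largest increase and the 9th smallest p-value. A 2-sided exact permutation test, with 20 ways to assign the mice, gave p = 0.1, which is the smallest value it can give.

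Egln3 varied both between mice and between the kidneys of a mouse. In 43-49 both kidneys were low for the TG+ group, at 356 and 345 CPM, while the other TG+ libraries ranged from 459 to 506 CPM. The level in 43-49 was thus 28.5% below the mean of the other TG+ mice. The 2 kidneys of 43-29 differed as well, at 506 and 459 CPM, but the largest ratio between kidneys, 1.16-fold, was in the TG− mouse 43-50 (13.8 and 11.9 CPM). Each TG− library held at least 304 reads of Egln3, so the gene was well detected before the increase, and the highest TG+ library held 12557 reads. Without 43-49 the log2 fold change was 5.07, and leaving out each mouse in turn gave 4.82 to 5.07.

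Egln1 (ENSMUSG00000031987, chromosome 8 from 124908587 to 124949324) encodes PHD2, regarded as the main oxygen sensor of this enzyme family. Its mRNA stood at 207, 178 and 193 CPM in the TG+ mice and at 98.1, 108 and 101 CPM in the TG− mice. No TG+ mouse overlapped the TG− mice. The mean rose from 102 ± 4.93 to 193 ± 14.5 CPM, a 1.88-fold increase with an interval of 1.68 to 2.11, which spans the 2-fold threshold. On the log2 scale the change was 0.91 (standard error 0.07, adjusted p = 0.00015 in edgeR's test), and its p-value ranked 205 of all tested genes. With libraries scaled by size alone the change was 1.03 on the log2 scale, and Egln1 was then called.

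As for Egln3, the TG+ mouse with the lowest Egln1 level was 43-49, 11.1% below the mean of the other TG+ mice. The 2 kidneys of a mouse differed by at most 1.06-fold. Of the 12 HIF target genes listed further on, 10 also had their lowest TG+ value in 43-49, against 37.7% of all tested genes and 46.4% of the 732 genes called higher. The same was so for 7 of the 11 hydroxylase partners, 3 of the 6 ligase genes and 3 of the 4 tubule injury markers. In the other lists given below it was so for 21 of the 49 dioxygenases and 4 of the 10 FIH substrates. For the HIF subunits it was 1 of 5 and for the coactivator genes 1 of 4. The marker counts were 4 of 10 for proximal tubule, 2 of 6 for endothelium and 2 of 7 for immune cells. For stroma it was 1 of 6, and for other nephron segments 0 of 6. Among markers of other nephron segments, Umod was highest in 43-49, at 2558 CPM against 1745 and 1754 CPM in the other TG+ mice, and so was Calb1, at 615 CPM against 323 and 415 CPM. The part of these differences in the values of this mouse was not tested. The level of Egln2 in 43-49 differed from the mean of the other TG+ mice by 0.506% and those of Hif1an and Vhl by 5.12% and 4.66%, all upward.

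Egln2 (ENSMUSG00000058709, chromosome 7 from 27158658 to 27166802) encodes PHD1, the third prolyl hydroxylase. Its mRNA stood at 52.5, 53.5 and 53.9 CPM in the TG+ mice and at 65.0, 67.3 and 62.4 CPM in the TG− mice. Every TG+ mouse was below every TG− mouse, which was also so for 20.8% of all tested genes. The mean was 53.3 ± 0.701 CPM in TG+ and 64.9 ± 2.48 CPM in TG−, a fall to 0.821 of the TG− level with an interval of 0.756 to 0.891. On the log2 scale the change was -0.28 (standard error 0.05, adjusted p = 0.0062 in edgeR's test). Scaling by library size alone gave -0.16 with an adjusted p of 0.0432. Egln2 overlaps Cyp2t4 on the other strand by 11 exonic bases, which is 0.393% of its exonic length. Cyp2t4 had 148 reads over all libraries and Egln2 had 18561, and the handling of strand is not given in the sources used here.

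Vhl (ENSMUSG00000033933, chromosome 6 from 113623959 to 113631633) encodes the substrate receptor of the ubiquitin ligase that binds hydroxylated HIF. Its mRNA stood at 26.2, 29.2 and 29.6 CPM in the TG+ mice and at 26.3, 26.1 and 26.3 CPM in the TG− mice. The TG+ mouse 43-29 lay within the TG− range and the other TG+ mice above it. The log2 difference was 0.11 (standard error 0.06, adjusted p = 0.241 in edgeR's test), with an interval from -0.04 to 0.26, or 0.975 to 1.20-fold. The interval holds both a small decrease and a small increase. With each kidney as its own library the difference was 0.12 and the adjusted p was 0.044, and with scaling by library size alone 0.23 and 0.0414.

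Hif1an (ENSMUSG00000036450, chromosome 19 from 44562850 to 44576274) encodes FIH. Its mRNA stood at 64.1, 66.2 and 61.8 CPM in the TG+ mice and at 66.7, 65.6 and 66.9 CPM in the TG− mice, and the groups overlapped. The log2 difference was -0.05 (standard error 0.05, adjusted p = 0.484 in edgeR's test), with an interval from -0.17 to 0.06, or 0.891 to 1.04-fold. The sign turned with scaling by library size alone, to 0.07.

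**Figure D2:**
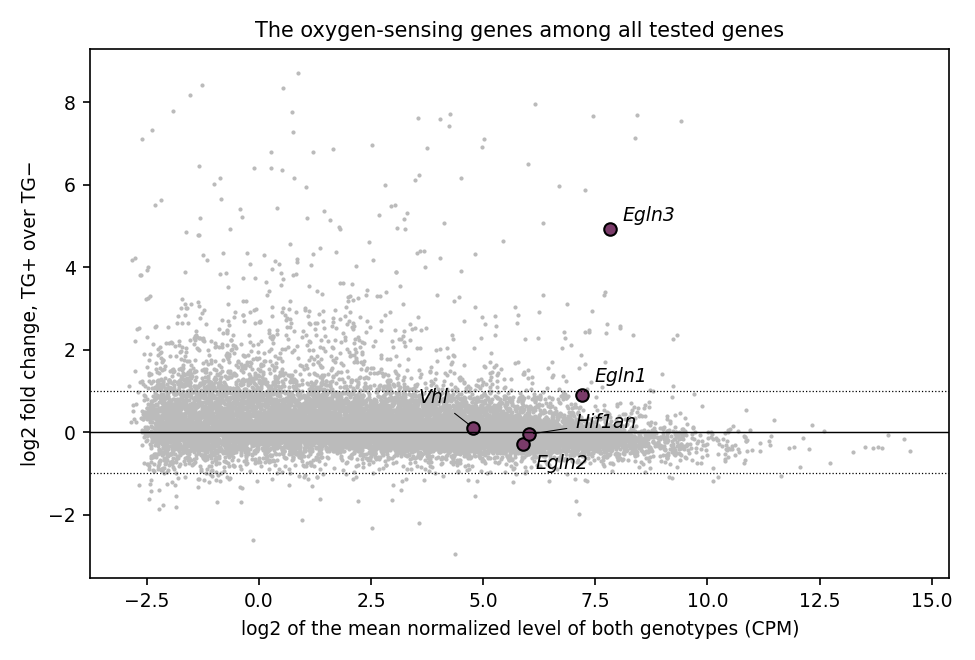
Each grey point is a tested gene, with the log2 of its mean CPM over both genotypes on the horizontal axis and its log2 fold change, TG+ over TG−, on the vertical axis; dotted lines mark a 2-fold change either way. Egln3 stands at 4.93 among the large increases, Egln1 just under the upper dotted line at 0.91, Vhl at 0.11, Hif1an at -0.05 and Egln2 at -0.28.

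To compare levels between the genes, the deposited RPKM values were used, which are scaled to gene length, as the mean of the 2 kidneys. In TG− cortex Egln1 was the most abundant of the 5 at 29.5 ± 1.38 RPKM (n = 3 mice), followed by Egln2 at 13.8 ± 0.509, Hif1an at 9.52 ± 0.1003, Vhl at 7.02 ± 0.0223 and Egln3 at 5.51 ± 0.516. In TG+ cortex the order was Egln3 at 164 ± 30.2 RPKM, Egln1 at 54.0 ± 4.03, Egln2 at 11.1 ± 0.204, Hif1an at 8.94 ± 0.281 and Vhl at 7.38 ± 0.507. Neighbours in either order did not overlap between mice of the group. Egln3 thus moved from the lowest place to the highest, while the order of the other 4 genes was kept. Among all tested genes, 67.0% had a lower RPKM than Egln3 in TG− and 99.1% in TG+, where 177 genes were above it. The gene lengths behind the RPKM values are not given in the sources used here. On the exonic lengths of GENCODE release M21 the TG− level of Egln2 was 22.2 on the same kind of scale, nearer to Egln1 at 27.3, and Hif1an and Vhl overlapped in TG+.

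The summed level of the 3 prolyl hydroxylase mRNAs was 246, 190 and 250 RPKM in the TG+ mice and 47.9, 50.2 and 48.3 RPKM in the TG− mice, 4.69 times as high in TG+ by the means. Egln3 made up 72.1%, 67.9% and 73.8% of that sum in the TG+ mice, against 12.2%, 9.80% and 11.97% in the TG− mice. The mean share of Egln3 rose by 59.9 percentage points, from 11.3 ± 1.32% to 71.3 ± 2.996%. The share of Egln1 was 23.8 ± 2.25% in TG+ and 60.4 ± 1.38% in TG−, so it was smaller in TG+ although the level of Egln1 was higher. The share of Egln2 was 4.91 ± 0.803% in TG+ and 28.3 ± 0.686% in TG−. On M21 exonic lengths the share of Egln3 was 69.2% in TG+ and 9.56% in TG−, close to the values above, but that of Egln2 was 8.10% in TG+ and 40.6% in TG−, and that of Egln1 22.7% and 49.9%. The split between Egln1 and Egln2 therefore depends on the lengths used. The 3 shares add up to the whole, so the rise of Egln3 by itself lowers the others, and they are 1 observation and not 3. The exact permutation p was 0.1, the smallest possible for 3 against 3 mice. The shares are of mRNA and say nothing of enzyme amount or activity, which were not measured.

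**Figure D3:**
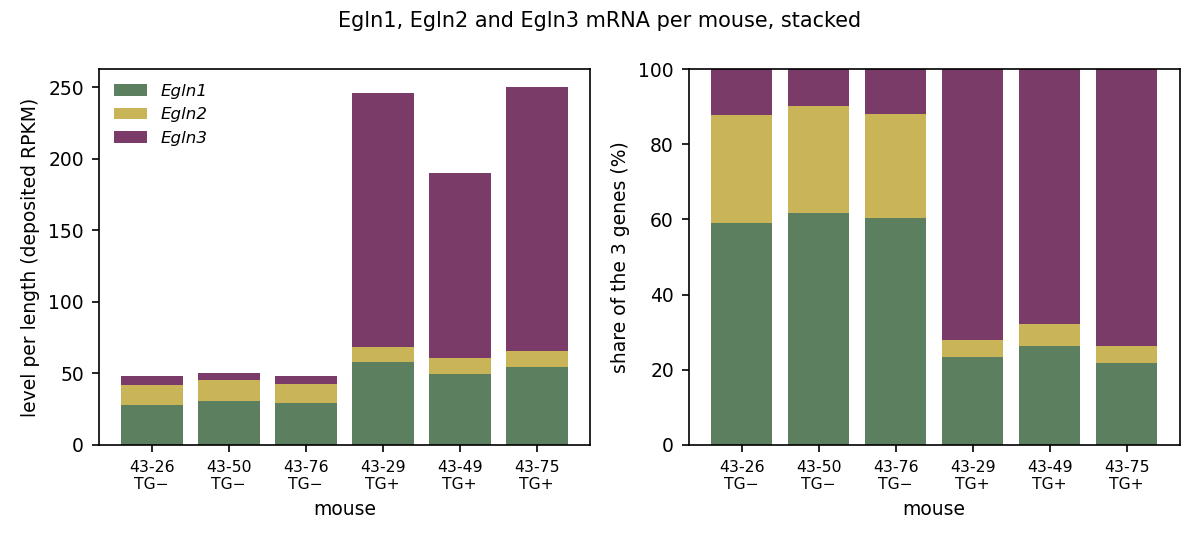
Left, deposited RPKM of Egln1, Egln2 and Egln3 stacked for each mouse (mean of 2 kidneys); right, the same as a percent of their sum. The TG− mice have sums of 47.9 to 50.2 RPKM with Egln1 as the largest part (60.4% on average with these lengths, 49.9% with M21 lengths), and the TG+ mice have sums of 190 to 250 RPKM made up mostly of Egln3.

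The ratio of a pair of genes within a mouse does not depend on how libraries are scaled. The log2 ratio of Egln3 to Egln1 reads was 1.21, 0.97 and 1.36 in the TG+ mice and -2.68, -3.05 and -2.74 in the TG− mice. It was therefore 4.004 higher in TG+ (standard error 0.16). The log2 ratio of Egln1 to Egln2 was 1.98, 1.73 and 1.84 in TG+ and 0.59, 0.68 and 0.70 in TG−, a difference of 1.19 (standard error 0.08). The balance between these genes was thus shifted toward Egln1 in every TG+ mouse. The ratio of Hif1an to Egln2 was 0.23 higher in TG+ (standard error 0.05) and that of Vhl to Egln2 was 0.39 higher (standard error 0.06). The 10 pairs share the same 5 genes and are not independent. Each gave an exact permutation p of 0.1 and, adjusted over the 10 pairs, 0.1, which is the smallest possible, so none could pass 0.05 in this design. The smallest difference, 0.16 (standard error 0.07), was that of Vhl to Hif1an.

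The other parts of the pVHL ligase were next considered. Its list held the elongins Elob and Eloc, the cullin Cul2, the RING protein Rbx1, the cullin modifier Nedd8 and the pVHL-binding prefoldin Vbp1. None of the 6 was called, and at an adjusted p of 0.05 only Rbx1 was lower, at 29.7 ± 0.387 CPM in TG+ and 34.1 ± 0.504 CPM in TG− (log2 fold change -0.20, adjusted p = 0.0219 in edgeR's test). Elob had the highest value, 0.02 on the log2 scale. The median of the list was -0.07, beside 0.01 for all tested genes, and its sign turned when libraries were scaled by size alone. Without the TG− mouse 43-76 it was -0.10.

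Among 11 genes for proteins known to bind, degrade or regulate the hydroxylases, such as the ubiquitin ligases Siah1a and Siah2 and the chaperone partner Fkbp8, none passed an adjusted p of 0.05. Their log2 fold changes lay between -0.24 for Siah1b and 0.26 for Siah1a. Their median was -0.05, with -0.10 without the TG− mouse 43-26, and its sign also turned with scaling by library size alone. P4htm, a transmembrane prolyl hydroxylase that has been reported to act on HIF, was low in both groups, at 1.72 ± 0.335 CPM in TG+ and 1.45 ± 0.273 CPM in TG−.

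The substrates of the hydroxylases are the HIF α subunits. Of the 5 subunit genes, Hif3a was called, with 3.84, 3.23 and 3.82 CPM in TG+ and 0.507, 0.385 and 0.450 CPM in TG− (log2 fold change 3.02, standard error 0.17, adjusted p = 3.11e-05 in edgeR's test). Epas1, which encodes HIF2α, rose by 0.37 on the log2 scale (adjusted p = 0.00742) and Arnt2, a dimer partner, fell by 0.21 (adjusted p = 0.041). At an adjusted p below 0.05, 15.4% of all tested genes were higher and 10.9% lower, and 3.77% were called higher. Hif1a stood at 95.7 ± 11.8 CPM in TG+ and 104 ± 2.17 CPM in TG− (adjusted p = 0.343), a value that may hold reads of the transgene. The median of the list was -0.11, and -0.07 without the TG+ mouse 43-75, and its sign turned with scaling by library size alone (0.0053). All 6 endothelial markers, of a cell type that also expresses Epas1, were higher at an adjusted p below 0.05, with summed levels of 514 to 544 CPM in TG+ and 298 to 392 CPM in TG−, and their part in the value of Epas1 was not tested.

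FIH acts on HIF by keeping away the coactivators, and it also hydroxylates proteins with ankyrin repeats. Of 4 genes for the coactivators and their competitors (Ep300, Crebbp, Cited2 and Cited4) none passed an adjusted p of 0.05, and their values ran from -0.03 for Crebbp to 0.32 for Cited2. Their median was 0.08 and rested on single mice, from 0.0067 without the TG+ mouse 43-49 to 0.16 without the TG− mouse 43-76. Of 10 genes for reported substrates of FIH other than HIF, Notch3 was called, at 35.4 ± 1.19 CPM in TG+ and 16.8 ± 1.84 CPM in TG− (log2 fold change 1.07, adjusted p = 0.000152 in edgeR's test). Notch1, the NF-κB precursor Nfkb1 and the NF-κB inhibitor Nfkbia were higher at an adjusted p below 0.05, with log2 fold changes of 0.50, 0.34 and 0.51. Of all tested genes 15.4% were higher at that threshold, and 3.77% were called higher. The lowest of the list was Tnks2 at -0.17 (adjusted p = 0.0799). The median was 0.17, and it was 0.06 when the TG+ mouse 43-29 was left out and 0.10 when the TG− mouse 43-50 was. Of the 6 markers of stroma and smooth muscle, tissue in which Notch3 is also expressed, 3 were higher at an adjusted p below 0.05, and all 6 endothelial markers, of a cell type that expresses Notch1, were higher too. Their part in the values of Notch3 and Notch1 was not tested.

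The prolyl hydroxylases belong to a family of dioxygenases that use 2-oxoglutarate. Of 53 other members listed, 49 were tested and 4 were called, all higher (beside 3.77% of all tested genes): the collagen prolyl 4-hydroxylase subunits P4ha1 and P4ha2 and the lysyl hydroxylases Plod1 and Plod2. Plod2 had the largest log2 fold change of the list, 3.40, from 36.3 ± 4.37 to 382 ± 72.6 CPM, and P4ha2, P4ha1 and Plod1 followed at 2.26, 1.87 and 1.69. The other collagen hydroxylases tested were not called, with log2 fold changes of 0.41 for P3h3 (adjusted p = 0.047), 0.27 for Plod3 (adjusted p = 0.00841), 0.08 for P3h2 (adjusted p = 0.763) and -0.20 for P3h1 (adjusted p = 0.157). At an adjusted p below 0.05, 14 of the 49 were higher and 3 were lower, beside 15.4% and 10.9% of all tested genes, the lowest being Alkbh3 at -0.31. The median was 0.07, and 0.02 without the TG+ mouse 43-49. The change of Egln3 was above all 49, that of Egln1 above 45 of the 49, and that of Egln2 above 1 of the 49. Hif1an lay above 10 and Vhl, which is no dioxygenase, above 30.

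For scale, 12 well-known HIF target genes were listed, of which 10 were called higher, beside 3.77% of all tested genes. All 12 were higher at an adjusted p below 0.05, beside 15.4% of all tested genes, with a median log2 fold change of 2.31. The authors had already reported increases of Car9, Ndufa4l2, Slc2a1 and Pdk1 from the same sequencing. Their values ran from 0.64 for the histone demethylase Kdm3a to 5.98 for Ndufa4l2, which encodes a mitochondrial protein. Of these 12 genes, Ndufa4l2 and Ankrd37 rose more than Egln3, whereas 10 rose more than Egln1. The genes called besides these were Slc2a1 (glucose transport), Pdk1 (block of pyruvate entry into the TCA cycle), Car9 (pH control), Bnip3 (mitophagy), Adm (a vasoactive peptide), Ero1a (disulfide formation), Pfkfb3 (glycolysis) and P4ha1, with log2 fold changes of 1.58 to 3.33. Kdm3a and Vegfa were not called, and Vegfa rose by 0.71 on the log2 scale (adjusted p = 0.000291 in edgeR's test).

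**Figure D4:**
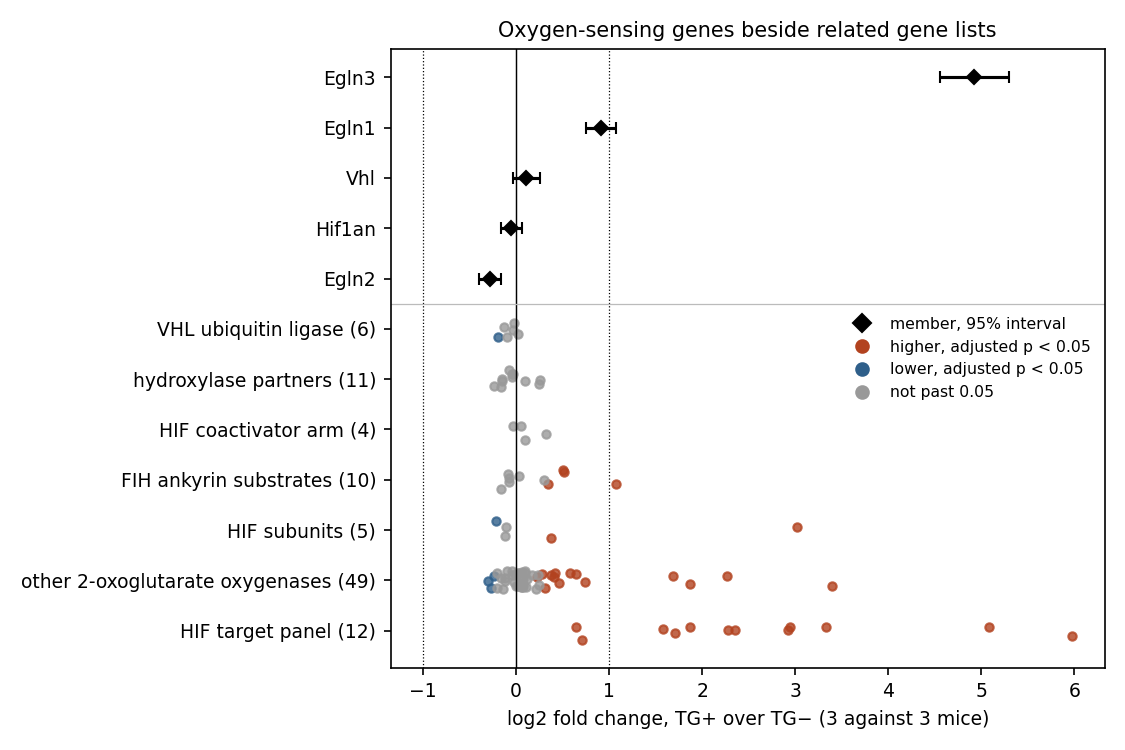
Log2 fold change, TG+ over TG−, on the horizontal axis. Diamonds are the 5 genes with 95% intervals from edgeR's fit, and points are the tested genes of each list (number in brackets), red or blue where higher or lower at an adjusted p below 0.05; dotted lines mark a 2-fold change. Egln3 at 4.93 lies to the right of all 49 other dioxygenases, and the ligase, partner and coactivator lists lie between -0.24 and 0.32.

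The genes whose pattern over the 6 mice was most like that of Egln3 were sought among 15827 genes with at least 1 CPM in TG−. Likeness was the root mean square difference of log2 CPM after each gene's TG− mean was subtracted. The nearest was Ankrd37, an ankyrin repeat gene, with a difference of 0.199. It stood at 37.5, 23.4 and 41.5 CPM in TG+ and, like Egln3, was lowest among TG+ mice in 43-49. Aldh1l2 (mitochondrial folate metabolism) followed at 0.238 but was not low in 43-49, at 159, 159 and 154 CPM in TG+. Next came Aldh18a1 (proline synthesis) at 0.241, Defb19 at 0.416 and Isg20 at 0.457, each lowest among TG+ mice in 43-49. The measure also counts the size of the change, and the log2 fold changes of these genes ran from 4.39 to 5.08. For Egln1 the 5 nearest were Gm7129, Gm3222, Gm10327, ENSMUSG00000079360 and Gm7251, with differences of 0.037 to 0.042. In GENCODE M21, 4 of these are processed pseudogenes and the other is not in the annotation. Reads of such copies can be shared with the genes they derive from, so their values are uncertain.

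Markers of the cell types of the cortex were also counted. At an adjusted p below 0.05, 15.4% of all tested genes were higher and 10.9% lower. By the rule for calls, 3.77% were called higher and 0.211% lower. Of 10 proximal tubule markers 6 were lower in TG+ at an adjusted p below 0.05 and 1 of them was called, with a median of -0.40, and their summed level was 26431 to 29565 CPM in TG+ and 34836 to 37111 CPM in TG−. All 6 endothelial markers were higher at an adjusted p below 0.05 (median 0.71, sums of 514 to 544 against 298 to 392 CPM). Of 6 stroma and smooth muscle markers, 3 were higher (median 0.62, sums of 227 to 269 against 140 to 183 CPM). Of 7 immune markers, 6 were higher and 3 were called (median 0.92, sums of 52.6 to 55.5 against 23.5 to 34.3 CPM). Of 4 tubule injury markers, 3 were called (median 1.70, sums of 26.7 to 43.5 against 5.12 to 12.9 CPM). None of 6 markers of other nephron segments passed an adjusted p of 0.05 (median 0.05, and -0.11 without 43-49), with sums of 3569 to 4889 against 3880 to 4001 CPM and the highest in 43-49. The part of these shifts in the values of the 5 genes and of the other genes named was not tested.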

How the data were processed

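Kidney cortex mRNA of 3 TG+ and 3 TG− mice (2 libraries per mouse) was prepared with the TruSeq kit and sequenced as 51-bp single-end reads, which the authors analysed mainly with the Tuxedo tools. The submitters' notes name the build mm9, and the counting program, the annotation release and the handling of strand are not given in the sources used here. The authors deposited raw counts per Ensembl gene and library, which carry no normalization, and the deposited RPKM values were scaled to gene length and to the library (BUQ in the header), with 1 added to each count beforehand. Columns with the authors' own fold changes, p-values and q-values, and log2 RPKM columns, were not used.

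Counts of the 2 kidneys were summed per mouse, so the unit was the mouse and 3 were compared with 3. Genes were kept with filterByExpr, normalized by TMM and tested in edgeR 4.0.16 (with limma 3.58.1 under R 4.3.3) by the quasi-likelihood method, with p-values adjusted by Benjamini-Hochberg over 19399 genes. The standard error of a log2 fold change was its size divided by the square root of the F statistic of this test. Intervals of 95% use it with a t distribution. They are for the mean difference between genotypes, with a variance between mice that is moderated over genes. Shares and within-mouse ratios were compared with a 2-sided exact permutation test. The procedure was tested on simulated data. Symbols matched 32642 of the 37681 genes, and positions are from GENCODE M21 (GRCm38), not from the build of the files. Promoter windows, from RefSeq, were found for all 5 genes.

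The 5 genes, the gene lists and the alternatives were chosen with earlier results of these data known. Named genes were the 5 genes; the members past an adjusted p of 0.05 and the highest and lowest of the ligase, partner, subunit, coactivator and FIH substrate lists; the members past the fold threshold and the extremes of the dioxygenase and HIF target lists; and the 5 genes most like Egln3 and Egln1. Others named in passing were chosen after their values were seen. P4ha3 and Kdm4d had too few reads to be tested, and Jmjd7 and Tmlhe were not matched. The alternatives were DESeq2 1.42.0, each kidney as its own library, either kidney alone, other scalings, all genes without a count filter, pairing of the mice, other thresholds and leaving out each mouse. Tables and plots were made with matplotlib 3.10.9, pandas 2.3.3, scipy 1.17.1 and numpy 2.4.6 in Python 3.11.15.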

Additional observations from a re-analysis of the deposited data

How the results depend on the processing

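Egln3, Egln1 and Egln2 kept their direction and an adjusted p below 0.05 in all 15 alternatives of each, with log2 fold changes of 4.82 to 5.07, 0.85 to 1.03 and -0.31 to -0.16. Egln2 had adjusted p-values of up to 0.0432 and passed 0.01 in none of the fits that left out a mouse (0.0143 to 0.0241 in edgeR's test). The number of the 5 genes called was 2 with scaling by library size alone, which adds Egln1, and 3 on the adjusted p alone, at 0.05 or at 0.01. That scaling moved the median log2 fold change of all tested genes from 0.01 to 0.13. It also gave Hif1an 0.068 (adjusted p = 0.397) and Vhl 0.23 (adjusted p = 0.0414), and list medians of 0.0527 for the VHL ligase, 0.0053 for the HIF subunits and 0.071 for the hydroxylase partners. Each kidney as its own library gave Vhl 0.12 (adjusted p = 0.044), a fit that treats kidneys of a mouse as independent. The median of the other nephron markers was -0.11 without the TG+ mouse 43-49 and ranged from -0.11 to 0.18 when each mouse was left out. In those fits the medians ranged from -0.10 to -0.05 for the VHL ligase and for the hydroxylase partners, -0.13 to -0.07 for the HIF subunits, 0.0067 to 0.16 for the coactivators, 0.06 to 0.20 for the FIH substrates and 0.02 to 0.10 for the dioxygenases. The number of all genes called higher fell from 732 to 469 without the TG− mouse 43-76 and to 504 and 506 without the TG− mouse 43-50 and the TG+ mouse 43-75, and scaling by library size alone gave 22 called lower in place of 41.

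The table's name groups the mice as 49 with 50, 26 with 29 and 75 with 76. The correlations of the deviations of the named pairs were 0.30, 0.34 and -0.02, and for the other combinations of a TG+ and a TG− mouse they ran from -0.35 to 0.04. The pairs 49 with 50 and 26 with 29 thus lay above all other combinations, and 75 with 76 lay within their range. The labels do not say what a pair is, so the main fit did not treat the mice as paired. A replicate block for these pairs gave 4.91 for Egln3, 0.91 for Egln1, -0.28 for Egln2 (adjusted p = 0.0102), 0.11 for Vhl and -0.05 for Hif1an, and 779 genes called higher and 46 lower over the table. With 3 mice a group, the permutation tests could not pass 0.05. Each of the 5 genes had at least 304 reads in every library, and the effect of depth was not tested.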

Other observations

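Apart from P4ha1, P4ha2, Plod1 and Plod2, the dioxygenases with an adjusted p below 0.05 (edgeR) changed by less than 2-fold. The genes given here were named after their values were seen, and no group of them was tested. Of the histone demethylases listed, Kdm4b rose from 21.4 ± 1.38 to 35.6 ± 1.18 CPM (log2 fold change 0.74, adjusted p = 0.000282), Kdm3a from 34.9 ± 1.68 to 54.3 ± 7.38 CPM (0.64, adjusted p = 0.00357), Kdm5b by 0.38 and Kdm2a by 0.23 on the log2 scale. The others tested (Kdm2b, Kdm3b, Jmjd1c, Kdm4a, Kdm4c, Kdm5a, Kdm5c, Kdm6a, Kdm6b, Kdm7a, Phf2 and Phf8) did not pass. Of the AlkB family, Alkbh5, which removes methyl groups from adenines of mRNA, rose from 311 ± 5.36 to 416 ± 19.9 CPM (0.42, adjusted p = 0.00168) and Alkbh1 rose by 0.31 (adjusted p = 0.043), whereas Alkbh3 fell by 0.31 and Alkbh7 by 0.27. Alkbh2, Alkbh4, Alkbh6 and Alkbh8 did not pass. Fto, also an adenine demethylase of mRNA, had a log2 difference of -0.14 (adjusted p = 0.0787). Jmjd6 rose by 0.57 and Asph, which hydroxylates aspartate and asparagine in epidermal growth factor-like domains, by 0.46. Phyh, the phytanoyl-CoA hydroxylase of peroxisomes, stood at 488 ± 20.7 CPM in TG+ and 577 ± 30.9 CPM in TG− (log2 fold change -0.24, adjusted p = 0.0247). Over all tested genes 15.4% were higher and 10.9% were lower at that threshold, beside 14 and 3 of the 49 dioxygenases.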
